A study of Mus musculus with 7 samples.

Results

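The long intergenic noncoding RNAs described here were the 255 rows of the deposited gene table whose biotype is lincRNA and whose mean was at least 30 over the 7 libraries. They came from 5559 lincRNA rows among 54532 genes in all, and 3097 of the lincRNA rows were at 0 in every library. They were chosen by their mean level over all 7 libraries, so their levels are given as a description. The selection also names D130009I18Rik, so that lincRNA is described without a test.

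Long intergenic noncoding RNAs are RNA polymerase transcripts that are spliced and capped like messenger RNAs but carry no long open reading frame. They act in varied ways: some build nuclear bodies, some silence neighbouring genes or a whole chromosome, and some are hosts whose processing releases miRNAs or small nucleolar RNAs (snoRNAs). For many only the act of transcription, or nothing, is known, and they tend to be more restricted to single cell types than messenger RNAs are. Brg1, encoded by Smarca4, powers the BAF remodelling complex, which moves nucleosomes at promoters and enhancers and so also at the start sites of noncoding transcripts.

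The series measured RNA in 4 Brg1 knockout libraries and 3 control libraries of untreated cochlear epithelium, the lining of the hearing organ, from mouse embryos at embryonic day 16. It asks what the loss of Brg1 does to the differentiation and patterning of that epithelium. The sources used here do not give the Cre line, the deleted exons, the genotype of the controls beyond their label, or how many embryos were pooled. No label states that the replicates were separate animals, and p-values therefore refer to the spread between libraries, which may be technical. Total counts ran between 16098269 and 18503657 in knockout libraries and between 18251121 and 18872132 in control libraries. Smarca4 itself fell in knockout libraries, to 249 ± 23.0 CPM (counts scaled to library size; SD, n = 4) against 368 ± 10.9 CPM in control libraries (SD, n = 3; log2 fold change -0.56 ± 0.09 SE, edgeR adjusted p = 0.00338).

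The 7 libraries fall into 2 sets that the labels do not name. In 17795 of 54532 genes the fractional part of the deposited values was alike within each set and differed between the sets, a form that counts take when moved by a constant per gene and set. Knockout replicates 1, 2 and 3 with control replicates 1 and 2 form the larger set of 5, and knockout replicate 4 with control replicate 3 the smaller set of 2. Results are therefore given also within the larger set, and as the difference of the 2 libraries of the smaller set, which has no replicate. That difference is of log2 CPM after a small constant was added to both values. The constant draws it toward 0 in scarce genes, so it is not the same measure as the edgeR fold changes. At an edgeR adjusted p below 0.05, 4.87% of all genes tested were lower and 1.94% were higher in knockout libraries. Of 21 neuronal marker genes, 14 fell and 0 rose in knockout libraries at that threshold, which also holds for the marker counts that follow. Their summed level was 709 to 1130 CPM in knockout libraries and 2260 to 2565 CPM in control libraries, and none was at 0. Of 13 markers of glia, 5 fell and 0 rose, with sums of 771 to 977 CPM in knockout libraries and 1319 to 1428 CPM in control libraries. Epithelial markers, 16 genes, summed to 1700 to 1966 CPM in knockout libraries and 1338 to 1547 CPM in control libraries, and 10 of them rose. The libraries labelled epithelium thus held transcripts of neuronal and glial marker genes in both groups. Lower levels can reflect fewer cells of a type or less RNA per cell, which cannot be told apart in bulk RNA.

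The label intergenic was checked against the positions in the table, which are those of GENCODE M21 (GRCm38) for 247 of the 255 rows. GENCODE M21 calls 248 of them lincRNA. Of the 255 rows, 120 overlapped another gene, 80 of them a gene on the opposite strand, and 47 overlapped a protein-coding gene. Whether reads were counted by strand is not given in the sources used here, so a lincRNA and a gene that overlaps it cannot be told apart where their spans meet. For 13 rows at least 50% of the longest transcript matched another gene at 97% identity or more, and their counts are uncertain. An example is Gm10076, whose transcript matched the ribosomal protein gene Rpl41 over 99.7% of its length.

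On the same strand, 18 of the 255 lincRNAs held the hairpin gene of a miRNA inside their span. A miRNA recognises its target messenger RNAs mainly through its seed, bases 2 to 8, so hosts were compared by the seeds they would release. Mature sequences are from RefSeq (GRCm38.p6), are written 5′ to 3′, and have the seed in capitals. The first 4 sequences belong to 2 hosts that fell in knockout libraries. C78859 holds Mir138-2, with miR-138-5p at chr8:94324312-94324334 and miR-138-2-3p at chr8:94324359-94324379, both on the plus strand. 5330434G04Rik holds Mir325, with miR-325-5p at chrX:105379142-105379164 and miR-325-3p at chrX:105379105-105379126, both on the minus strand. Their 4 seeds differ from each other.
miR-138-5p: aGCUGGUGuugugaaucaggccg
miR-138-2-3p: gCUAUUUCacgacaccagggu
miR-325-5p: cCUAGUAGgugcucaguaagugu
miR-325-3p: uUUAUUGAgcaccuccuaucaa
The next sequences belong to hosts that did not pass the test, and are shown because they include miRNAs known from neural progenitors, developmental timing and proliferation. C130071C03Rik holds miR-9-5p (chr13:83738821-83738843, plus strand). 6720427I07Rik holds let-7d-5p (chr13:48536078-48536099, minus strand) and lies 7 bases from the hairpin of let-7f-1 and 357 bases from that of let-7a-1. let-7d-5p, let-7f-5p and let-7a-5p share the seed GAGGUAG. Mir17hg holds 6 miRNA genes, among them miR-17-5p (chr14:115043684-115043706) and miR-20a-5p, which share the seed AAAGUGC.
miR-9-5p: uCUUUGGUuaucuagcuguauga
let-7d-5p: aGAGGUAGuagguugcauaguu
let-7f-5p: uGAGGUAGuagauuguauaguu
let-7a-5p: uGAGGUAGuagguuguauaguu
miR-17-5p: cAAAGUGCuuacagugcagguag
miR-20a-5p: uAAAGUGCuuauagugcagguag
In the table the rows of Mir124a-1, Mir124a-2 and Mir138-2 had a mean of 0 counts and that of Mir325 a mean of 0.3, so the values given for a host are those of the host transcript and not of its miRNA.

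Together the 255 lincRNAs took 0.491% to 0.514% of all counts in knockout libraries and 0.455% to 0.556% in control libraries. Their levels were skewed. H19, an imprinted transcript expressed from the maternal allele beside Igf2, was at 482 ± 18.8 FPKM (a level scaled to gene length and depth) in knockout libraries and 502 ± 24.6 FPKM in control libraries, and took 23.5% to 24.5% of the counts of the 255 lincRNAs in knockout libraries and 22.0% to 28.2% in control libraries. The next were 6330403K07Rik at a mean of 97.7 FPKM over the 7 libraries, Malat1, a lincRNA of nuclear speckles, at 69.7 FPKM, and Epb41l4aos at 57.3 FPKM. 2900097C17Rik followed at 53.6 FPKM, Gm26917 at 48.2 FPKM, Gm10076 at 41.4 FPKM and 1810058I24Rik at 27.5 FPKM. The median lincRNA was at 1.92 FPKM, below the 7.37 FPKM of the median protein-coding gene with a mean of at least 30. A mean of 1000 or more was reached by 11 lincRNAs, 74 had a mean from 100 to 1000, and 170 from 30 to 100.

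**Figure D1:**
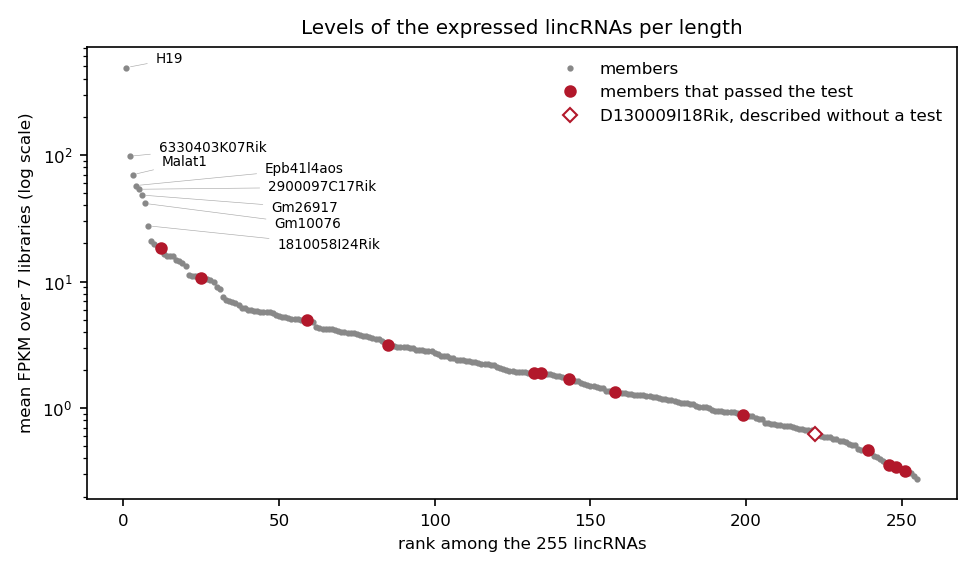
Mean FPKM over the 7 libraries (log scale) of each of the 255 lincRNAs against its rank, with the 8 highest named, the 13 that passed the test in red and D130009I18Rik, described without a test, as an open diamond. H19 stands alone at 490 FPKM, and most lincRNAs that passed the test lie in the lower part of the range.

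Libraries of a group varied more for lincRNAs than for messenger RNAs. The biological coefficient of variation, the spread between replicates beyond counting noise, was 20.6% for the 255 lincRNAs and 11.5% for protein-coding genes with a mean of at least 30. At means from 30 to 100 it was 22.6% for lincRNAs and 22.8% for protein-coding genes, so there the spread was alike, and at 100 to 1000 it was 15.4% against 12.4%. The most uneven members were Xist, which coats the inactive X chromosome of female cells, and Gm26917. Xist had 810, 226, 0 and 210 CPM in knockout libraries, against 0, 703 and 193 CPM in control libraries. Gm26917 had 0, 98.8, 359 and 150 CPM in knockout libraries, against 29.2, 386 and 136 CPM in control libraries. Neither ordered the libraries by group.

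The first question was which of these transcripts differed between knockout and control libraries. All 255 passed the filter on low counts and were tested within the fit over 17341 genes. At an edgeR adjusted p below 0.05, 4 lincRNAs were higher and 10 were lower in knockout libraries, which is 5.49% of the 255. Over all genes tested, 6.82% were called, 1.94% of them higher and 4.87% lower, so the share of lincRNAs called was near that of all genes. Without D130009I18Rik, 9 were lower. At a mean of at least 30, 8.28% of the 13304 protein-coding genes were called, as were 4 of 187 antisense genes, 2 of 155 processed transcripts, 3 of 123 rows typed TEC and 1 of 41 bidirectional-promoter noncoding RNAs. Of 273 lincRNA rows tested below a mean of 30, 2 were higher and 6 lower.

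Of the lincRNAs called, 8 of the 10 lower, D130009I18Rik among them, and 2 of the 4 higher differed by at least 2-fold. Of all genes called, 355 of 845 lower and 72 of 337 higher ones did. These sizes are a description, since they are those of genes picked by the test. The selection bears on them too. Gm45881, with 10.4 to 21.4 counts in knockout libraries, reached the mean of 30 only through its control libraries. So did D130009I18Rik, Mir124-2hg and C78859, with every knockout library below 30 counts. 5330434G04Rik and Gm10605 also had a knockout mean below 30. Gm35208 had a control mean below 30 and reached the limit only through its knockout libraries. All of these are among those that differed by at least 2-fold. The groups did not overlap in all 14. Over the whole group, 26 lincRNAs had all knockout libraries above all control libraries and 17 had all of them below. These were 16.9% of the 255, against 20.7% of all genes tested, of which 9.27% lay above and 11.5% below. The median log2 fold change of the 255 was 0.12, against 0.02 over all genes tested. Of the 255, 168 lay above 0, as did 9220 of the 17341 genes tested. It was 0.155 in the lincRNA rows tested below a mean of 30. At a mean of at least 30 it was 0.098 in processed transcripts, 0.084 in antisense genes, 0.056 in TEC rows, 0.012 in bidirectional-promoter noncoding RNAs and 0.009 in protein-coding genes. Within the larger set the median of the 255 was 0.06, against 0.01 over all genes, and by library the median difference from the control mean ranged from 0.01 in knockout replicate 1 to 0.20 in knockout replicate 4.

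**Figure D2:**
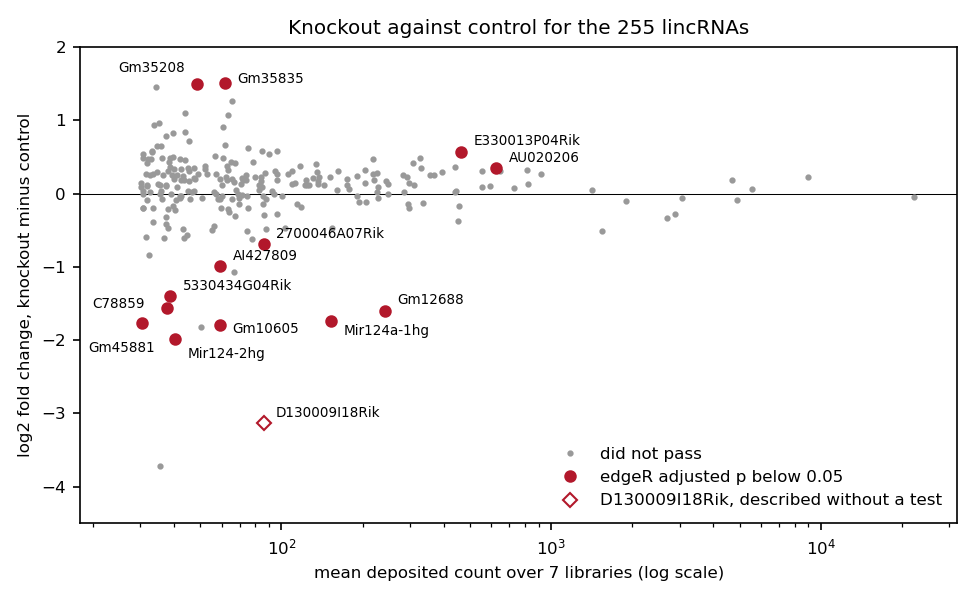
Log2 fold change, knockout minus control, against the mean deposited count (log scale) for the 255 lincRNAs, with the 13 at an edgeR adjusted p below 0.05 in red and D130009I18Rik, described without a test, as an open diamond. D130009I18Rik lies at -3.13, the 9 other lower ones reach -1.99, the 4 higher ones 1.51, and all 11 lincRNAs with a mean of 1000 or more are among those that did not pass.

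The calls held unevenly. DESeq2 called 6 higher and 13 lower, all 14 among them, beside 9.9% of all genes (3.22% higher and 6.68% lower). Within the larger set, 7 of the 14 were called (2 higher and 5 lower), where 3.74% of all genes were called (1.25% higher and 2.49% lower). The 7 not called there were AU020206, E330013P04Rik (adjusted p = 0.0610), 2700046A07Rik, Gm10605 (adjusted p = 0.0681), AI427809, 5330434G04Rik and C78859 by edgeR. In each of the 7 fits that leave out 1 library, 9 of the 14 were called, which were Mir124-2hg, Mir124a-1hg, Gm10605, Gm45881, Gm12688, C78859, Gm35835, E330013P04Rik and D130009I18Rik, whose values are a description. The number called higher was 2 instead of 4 without knockout replicate 2, and also without control replicate 2.

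D130009I18Rik spans chr14:104612791-104966783 on the plus strand (GRCm38) and no function is given for it here. It had 1.15, 0.695, 1.60 and 0.891 CPM in knockout libraries, against 10.6, 9.38 and 8.46 CPM in control libraries. The highest knockout library lay well below the lowest control library, and the transcript was 8.74-fold lower in knockout libraries (log2 fold change -3.13). This was the lowest log2 fold change among the 14, as a description. It was -3.12 in the larger set. The difference in the smaller set was -2.69, a value drawn toward 0 by the constant added there, so the 2 sizes cannot be compared. Of 3 tested protein-coding genes within 200 kb, 1 was called. This was Pou4f1, a homeodomain factor of sensory neurons including those of the spiral ganglion, which lies 144.8 kb away on the opposite strand. It fell in knockout libraries, to 13.0 ± 5.81 CPM against 44.5 ± 6.11 CPM in control libraries (log2 fold change -1.77 ± 0.33 SE, edgeR adjusted p = 0.0226). Rnf219, at 90.1 kb, was at a log2 fold change of -0.04 ± 0.11, and Rbm26, at 140.0 kb, at 0.02 ± 0.08. Pou4f1 was also on the list of neuronal markers. The part of neuronal RNA in the level of D130009I18Rik was not tested.

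Of the 18 hosts of miRNAs, 4 fell and 0 rose, a share of 22.2% beside the 4.87% of all genes that were lower. Their median log2 fold change was 0.03. Mir124a-1hg and Mir124-2hg are hosts of miR-124, an abundant miRNA of neurons that represses messenger RNAs of other cell types. Mir124a-1hg (chr14:64587331-64593961, plus strand) had 3.76, 3.69, 5.43 and 3.98 CPM in knockout libraries, against 13.1, 15.9 and 13.1 CPM in control libraries. Mir124-2hg (chr3:17789921-17808970, plus strand) had 0.818, 0.642, 1.29 and 1.13 CPM in knockout libraries, against 5.38, 2.72 and 3.44 CPM in control libraries. In both, each knockout library lay below each control library. Their log2 fold changes were -1.74 ± 0.18 (SE, edgeR adjusted p = 0.000752) and -1.99 ± 0.33 (adjusted p = 0.00412), and both were also called within the larger set.

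C78859 (chr8:94322158-94328100, plus strand), the host of the miR-138 sequences printed above, is the host of a miRNA known from dendrites of brain neurons. It had 1.47, 0.749, 1.36 and 0.950 CPM in knockout libraries, against 2.93, 4.27 and 2.89 CPM in control libraries, and fell by 1.57 ± 0.30 on the log2 scale (SE, edgeR adjusted p = 0.00958). Within the larger set its adjusted p was 0.0520. 5330434G04Rik (chrX:105348282-105391776, minus strand), the host of miR-325, had 0.818, 1.02, 2.16 and 1.01 CPM in knockout libraries, against 4.70, 2.28 and 2.89 CPM in control libraries. The highest knockout library, replicate 3, came close to the lowest control library. Its log2 fold change of -1.40 ± 0.37 (edgeR adjusted p = 0.0451) missed the threshold once knockout replicate 1, 2 or 4 was left out, and likewise control replicate 1 or 3, with an adjusted p of up to 0.186. The hairpin of Mir384 lies 3913 bases beyond the end of this host. All 4 hosts that fell moved with the neuronal markers listed above, and the part of neuronal RNA was not tested.

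**Figure D3:**
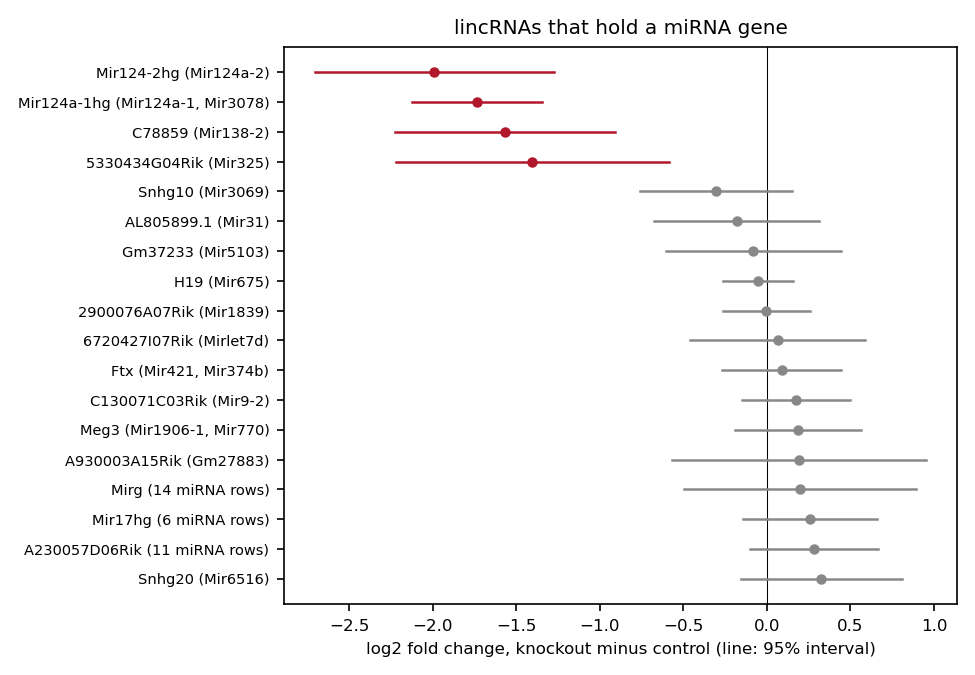
Log2 fold change, knockout minus control (points), with its 95% interval (lines), of the 18 lincRNAs that hold a miRNA gene on the same strand, named with the miRNA rows they hold. The 4 hosts in red passed the test with intervals below 0, and the intervals of the other 14 include 0.

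The other 14 hosts did not pass the test. C130071C03Rik, the host of miR-9, a miRNA of neural progenitors, was at 14.3 ± 2.33 CPM in knockout libraries (SD, n = 4) and 12.7 ± 0.361 CPM in control libraries (SD, n = 3), and the groups overlap (log2 fold change 0.17, 95% interval -0.15 to 0.50). Mef2c, the protein-coding gene that lies nearest by start site, fell (-0.52 ± 0.10 SE, edgeR adjusted p = 0.0104). Mir17hg, whose miRNAs promote proliferation, was at 0.26 (95% interval -0.14 to 0.66). 6720427I07Rik, beside the let-7 hairpins, was at 0.06 (95% interval -0.46 to 0.59), and AL805899.1, which holds Mir31, at -0.18 (95% interval -0.68 to 0.32). The intervals of these hosts exclude a fall as large as that of Mir124a-1hg.

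Gm12688 and Gm10605 fell next to protein-coding genes that fell too. Gm12688 (chr4:99653607-99654983, minus strand) starts 1316 bases from Foxd3 and is transcribed away from it. Foxd3 is a forkhead factor of the neural crest and of glial precursors, and is among the glial markers above. Gm12688 had 7.53, 4.60, 5.67 and 10.8 CPM in knockout libraries, against 24.6, 18.3 and 21.8 CPM in control libraries (log2 fold change -1.60 ± 0.25 SE, edgeR adjusted p = 0.00378). Foxd3 was at 12.7 ± 3.26 CPM in knockout libraries and 40.2 ± 2.52 CPM in control libraries (-1.66 ± 0.17 SE, edgeR adjusted p = 0.000752). In both genes the groups did not overlap. The other 3 tested protein-coding genes within 200 kb of Gm12688, Alg6, Itgb3bp and Efcab7, did not pass and were at log2 fold changes of 0.13, -0.05 and 0.31.

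Gm10605 (chr7:99625936-99631711, plus strand) shares 1168 bases with Tpbgl on the opposite strand. It had 2.29, 0.588, 1.85 and 1.60 CPM in knockout libraries, against 5.70, 5.38 and 5.35 CPM in control libraries (-1.79 ± 0.33 SE, edgeR adjusted p = 0.00849), and did not pass within the larger set. Tpbgl was at 3.32 ± 0.358 CPM in knockout libraries and 10.3 ± 1.73 CPM in control libraries (-1.63 ± 0.18 SE, edgeR adjusted p = 0.000929). Since the strand used in counting is not given, reads of this pair cannot be told apart. Among the other 6 tested protein-coding genes within 200 kb, none passed, and Arrb1, at 19.2 kb, was at -0.36 ± 0.10 (edgeR adjusted p = 0.0656).

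The other lower lincRNAs had no tested protein-coding gene called within 200 kb. Gm45881 (chr9:117708192-117872584, minus strand) had 0.546, 1.12, 0.801 and 0.772 CPM in knockout libraries, against 3.50, 2.50 and 2.35 CPM in control libraries (-1.77 ± 0.31 SE, edgeR adjusted p = 0.00634), and its mean of 30.5 was just inside the limit of 30. AI427809 (chr4:53261356-53270232, minus strand) had 2.24, 2.57, 1.97 and 2.44 CPM in knockout libraries, against 3.61, 5.88 and 4.26 CPM in control libraries (-0.99 ± 0.23 SE, edgeR adjusted p = 0.0272). It passed in the 1 fit without control replicate 1 but in none of the other 6 fits that leave out a library, where its adjusted p reached 0.117. 2700046A07Rik had 3.60, 3.32, 4.32 and 3.92 CPM in knockout libraries, against 6.01, 5.94 and 6.38 CPM in control libraries (-0.69 ± 0.18 SE, edgeR adjusted p = 0.0411). It passed in the fit without knockout replicate 3 alone, and its adjusted p reached 0.132. No function is given here for these 3 transcripts.

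Of the 4 higher lincRNAs, 2 were scarce and changed more, and 2 were abundant and changed less. Gm35835 (chr9:41680147-41737398, minus strand) had 2.95, 5.88, 5.30 and 5.23 CPM in knockout libraries, against 1.67, 1.44 and 1.96 CPM in control libraries (1.51 ± 0.28 SE, edgeR adjusted p = 0.00789). It shares 36848 bases with 3110039I08Rik on the opposite strand, a processed transcript that holds Mir100, Mirlet7a-2 and Mir125b-1. That host was at 265 ± 29.5 CPM in knockout libraries and 233 ± 31.7 CPM in control libraries and did not pass (0.19 ± 0.11 SE, edgeR adjusted p = 0.385). As the strand used in counting is not given, reads of Gm35835 cannot be told from those of this far more abundant host where their spans meet. Gm35208 (chr12:12987317-12994199, plus strand) lies 45.4 kb from Mycn, a transcription factor of dividing progenitors. It had 5.35, 4.33, 2.40 and 2.97 CPM in knockout libraries, against 0.888, 1.11 and 2.02 CPM in control libraries (1.49 ± 0.37 SE, edgeR adjusted p = 0.0320). Its lowest knockout library stood close to its highest control library, and its adjusted p reached 0.125 among the fits that leave out knockout replicate 1 or 2 or control replicate 1 or 2. Mycn did not pass (0.23 ± 0.13 SE, edgeR adjusted p = 0.335).

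E330013P04Rik (chr19:60144675-60162591, plus strand) had 28.5, 30.6, 28.7 and 33.0 CPM in knockout libraries, against 21.4, 21.0 and 18.6 CPM in control libraries. All knockout libraries lay above all control libraries, with a log2 fold change of 0.57 ± 0.10 (SE, edgeR adjusted p = 0.00681), but it did not pass within the larger set or with a replicate block by description number (adjusted p = 0.0529). AU020206 (chr7:75769038-75782099, minus strand) had 39.1, 38.4, 35.6 and 41.0 CPM in knockout libraries, against 30.8, 28.6 and 31.6 CPM in control libraries. Its log2 fold change of 0.34 ± 0.09 (edgeR adjusted p = 0.0383) stayed below the threshold in the fit without knockout replicate 3 alone among those that leave out a library, and its adjusted p reached 0.185. The protein-coding genes nearest by start site, Fam204a for E330013P04Rik and Klhl25 for AU020206, did not pass, at 0.19 and -0.08, and neither did Akap13, whose span lies closer to AU020206, at 14.4 kb (-0.25 ± 0.09 SE, edgeR adjusted p = 0.134).

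**Figure D4:**
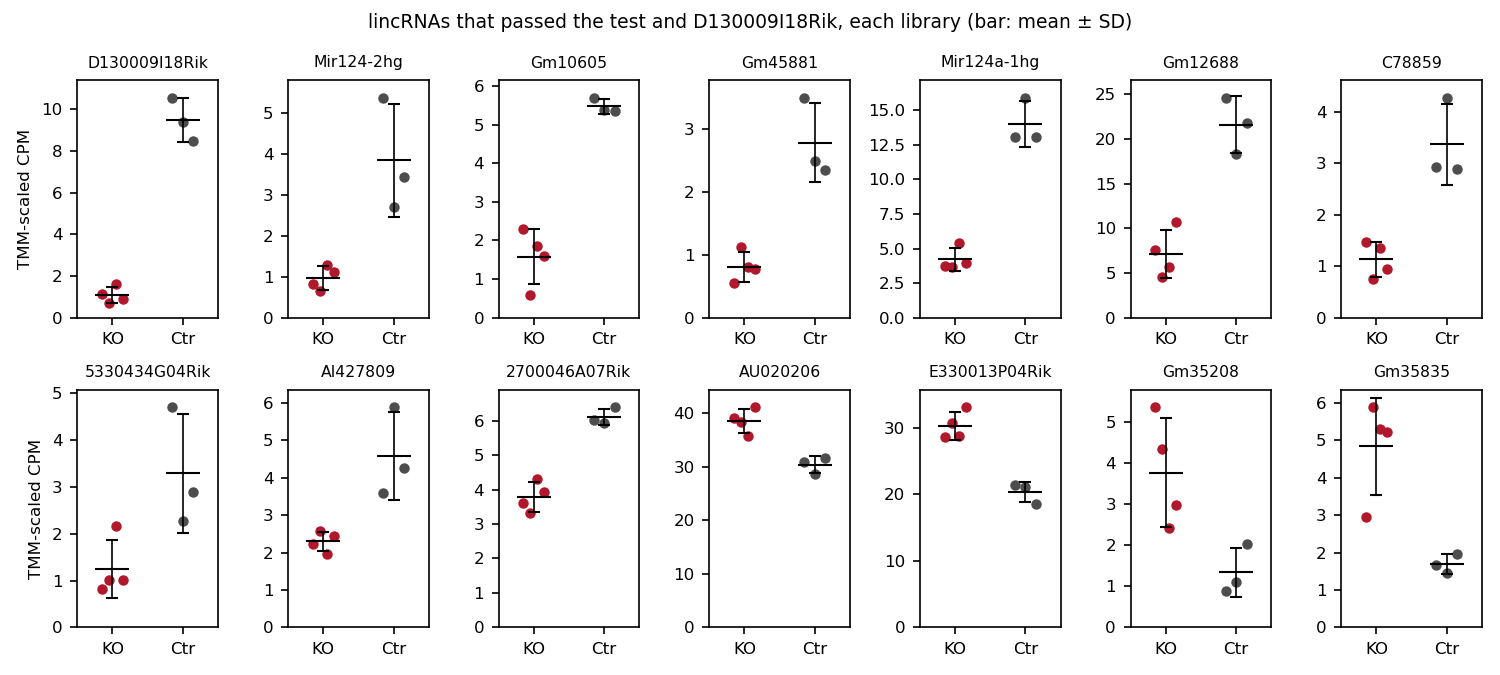
TMM-scaled CPM in each library (points, knockout in red and control in grey) with the mean and SD (bars) of the 13 lincRNAs that passed the test and of D130009I18Rik, described without a test, ordered from the lowest log2 fold change to the highest, each panel on its own scale from 0. In every panel the 4 knockout libraries and the 3 control libraries are separate, with the narrowest gaps in 5330434G04Rik and Gm35208.

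Promoter windows of 250 bases before to 50 bases after the RefSeq start (GRCm38.p6) were at hand for 123 of the 255 lincRNAs and for 6 of the 14 called. They are shown for 4 called lincRNAs, 2 higher and 2 lower, so that the letters found in them can be read. The motifs searched on both strands were the TATA box (TATAAA), the CCAAT box (CCAAT), the GC box (GGGCGG) and an E-box (CAGCTG), none of which overlap in these windows. Matches are in capitals, and a CCAAT box on the other strand reads ATTGG. AU020206 is shown for chr7:75782071-75782370 (minus strand), Gm35208 for chr12:12987131-12987430 (plus strand), D130009I18Rik for chr14:104638894-104639193 (plus strand) and 5330434G04Rik for chrX:105391705-105392004 (minus strand). For D130009I18Rik the RefSeq start lies 26353 bases inside the span of the table, so the window is not that of the table's own start.
AU020206: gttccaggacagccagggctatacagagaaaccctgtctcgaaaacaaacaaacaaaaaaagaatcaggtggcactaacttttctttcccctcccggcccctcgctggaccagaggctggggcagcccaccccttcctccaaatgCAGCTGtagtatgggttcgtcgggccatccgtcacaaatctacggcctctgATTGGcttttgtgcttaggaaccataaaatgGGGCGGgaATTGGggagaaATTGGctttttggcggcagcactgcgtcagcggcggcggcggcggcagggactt
Gm35208: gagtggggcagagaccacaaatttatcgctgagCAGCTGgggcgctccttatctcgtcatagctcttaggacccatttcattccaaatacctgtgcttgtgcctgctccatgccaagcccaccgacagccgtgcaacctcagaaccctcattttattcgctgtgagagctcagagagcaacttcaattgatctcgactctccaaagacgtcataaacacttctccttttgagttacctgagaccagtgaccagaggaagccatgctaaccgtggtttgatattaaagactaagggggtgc
D130009I18Rik: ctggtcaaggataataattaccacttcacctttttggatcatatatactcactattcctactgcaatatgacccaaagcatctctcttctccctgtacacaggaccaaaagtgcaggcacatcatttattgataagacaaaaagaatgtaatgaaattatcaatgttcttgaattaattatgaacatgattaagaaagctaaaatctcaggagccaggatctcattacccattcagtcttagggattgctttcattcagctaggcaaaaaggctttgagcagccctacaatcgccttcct
5330434G04Rik: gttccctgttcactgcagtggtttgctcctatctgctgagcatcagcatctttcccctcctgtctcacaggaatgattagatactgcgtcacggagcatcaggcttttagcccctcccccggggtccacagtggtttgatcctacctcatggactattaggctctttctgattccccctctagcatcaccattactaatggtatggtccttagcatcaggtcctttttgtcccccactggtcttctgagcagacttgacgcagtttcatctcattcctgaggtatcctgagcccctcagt
The AU020206 window holds a CCAAT box, a GC box and an E-box, the Gm35208 window holds an E-box, and the other 2 windows shown hold none of the 4 motifs. The 2 called lincRNAs whose windows are not shown, E330013P04Rik and Gm35835, were both higher in knockout libraries. Their windows also hold none of the 4 motifs, and have 11 and 4 CpG. CpG dinucleotides numbered 15 in the AU020206 window, 9 in that of Gm35208, 1 in that of D130009I18Rik and 4 in that of 5330434G04Rik. Over the 123 lincRNAs the median was 14 CpG, against 7 over all 32851 RefSeq promoters. The GC box was in 47.2% of the lincRNA windows and 35.7% of all windows, and the CCAAT box in 35.0% of the lincRNA windows and 37.4% of all. The TATA box was in 13.8% of the lincRNA windows and 13.6% of all, and the E-box in 13.0% of the lincRNA windows and 16.3% of all. The matches are a description of the letters in these windows.

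The genes next to the lincRNAs were compared by the start sites of the nearest protein-coding gene, which was tested for 239 of the 255. Across these pairs, the log2 fold change of the lincRNA and that of its neighbour had a Pearson r of 0.34 and a Spearman rho of 0.24, as a description over pairs that share all 7 libraries. For 49 lincRNAs that start within 1 kb of a protein-coding gene and run away from it, r was 0.59 and rho 0.55. Of these 49 lincRNAs, 0 were called by edgeR, beside 6.82% of all genes, and 8 had an unadjusted p below 0.05, beside 21.2% of all genes. Gm12688, at 1316 bases, lies just outside the window. Of their 49 partners 3 rose and 1 fell, which is 8.16%, near the 8.28% of protein-coding genes. Pou3f3, a POU factor of the developing nervous system, rose (0.41 ± 0.10 SE, edgeR adjusted p = 0.0308), with its divergent lincRNA Pantr1 at 0.27 ± 0.13 (adjusted p = 0.258). Irx2, an Iroquois homeobox gene, fell (-0.38 ± 0.08 SE, edgeR adjusted p = 0.0176), with Gm20554 at -0.47 ± 0.20 (adjusted p = 0.195). The other 2 partners that rose were Fbn2, which codes for a microfibril protein, next to Gm26507, and Cyr61, which codes for a matrix protein, next to Gm17501. Within the larger set Pou3f3 and Fbn2 passed, while Irx2 (edgeR adjusted p = 0.0783) and Cyr61 (edgeR adjusted p = 0.102) did not. None of these 4 partners passed in all 7 fits that leave out 1 library. In all 4 pairs the lincRNA and its partner had the same sign.

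Within 200 kb of the 14 called lincRNAs there were 30 tested protein-coding genes, and 3 of the 30 were called, beside 6.82% of all genes and 8.28% of protein-coding genes with a mean of at least 30. They were Foxd3, Tpbgl and Pou4f1, all in the direction of their lincRNA. Pou4f1 is counted here for D130009I18Rik, which the selection names. Beyond that window, Magee1, the protein-coding gene nearest by start site to 5330434G04Rik at 271398 bases, also fell, to 34.9 ± 5.28 CPM in knockout libraries against 52.5 ± 5.55 CPM in control libraries (-0.59 ± 0.12 SE, edgeR adjusted p = 0.0161). Magee1 did not pass within the larger set (edgeR adjusted p = 0.0676). The nearest by start site did not pass for Mir124a-1hg (Kif13b, 0.01 ± 0.09), AI427809 (Abca1, 0.04 ± 0.10), Gm45881 (Azi2, 0.12 ± 0.08) or Gm35835 (Sorl1, 0.34 ± 0.11). For C78859 (Slc12a3), Mir124-2hg (Cypt12) and 2700046A07Rik (Gm17732) it was too low to be tested. Among lincRNAs whose nearest protein-coding start was over 50 kb away, 3 of 68 were higher and 7 were lower, which is 14.7% beside 6.82% of all genes. D130009I18Rik, which the selection names, is 1 of these 7. Mir124-2hg and 5330434G04Rik, also among the 7, reached the mean of 30 only through their control libraries. The share is therefore a description. The 5 lincRNAs that hold a snoRNA gene gave no call by edgeR or at an unadjusted p below 0.05, and their median log2 fold change was 0.04.

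**Figure D5:**
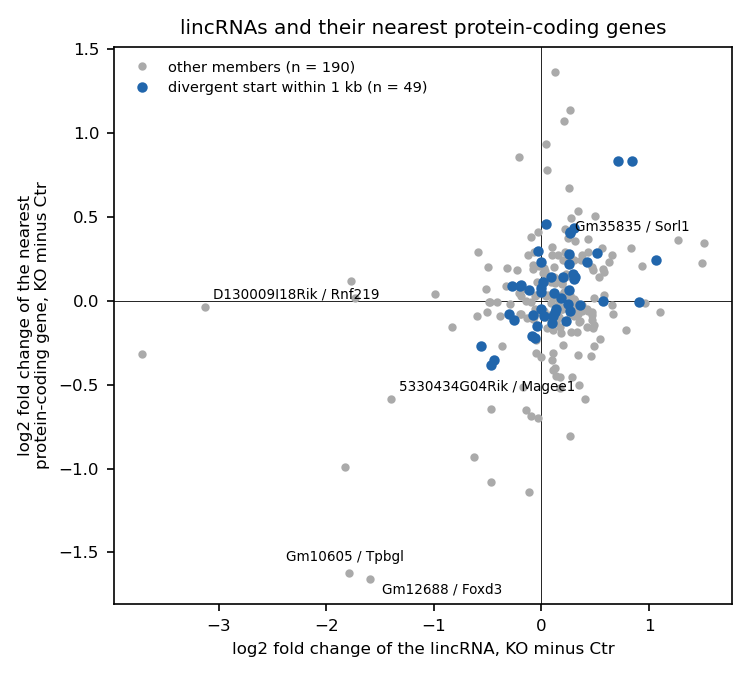
Log2 fold change of the nearest tested protein-coding gene against that of the lincRNA, knockout minus control, for 239 pairs, with the 49 divergent pairs within 1 kb in blue and 5 pairs of called lincRNAs named. Gm12688 with Foxd3 and Gm10605 with Tpbgl lie together at the lower left, and the D130009I18Rik pair lies at 0 on the vertical axis because Rnf219, not Pou4f1, is its nearest gene.

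Some genes on the lists of noncoding RNAs by role have other biotypes than lincRNA. Among 9 tested imprinted noncoding RNAs, 0 rose and 1 fell, beside 1.94% and 4.87% of all genes, and the 1 that fell, Peg13, is typed sense_intronic (-0.86 ± 0.15 SE, edgeR adjusted p = 0.00729). H19 had 1246, 1143, 1237 and 1259 CPM in knockout libraries, against 1202, 1242 and 1356 CPM in control libraries, and these ranges overlap (-0.05, 95% interval -0.26 to 0.15). Meg3, the maternally expressed lincRNA of the Dlk1 and Dio3 locus, had 229, 230, 307 and 340 CPM in knockout libraries, against 269, 268 and 192 CPM in control libraries. Its log2 fold change was 0.19 ± 0.17 over all libraries but -0.07 within the larger set and 0.82 in the smaller set, and it did not pass over all libraries or in the larger set. Mirg, further along the same locus, was at 0.20 ± 0.31 over all libraries, -0.34 in the larger set and 1.51 in the smaller set. The protein-coding genes at the ends of that locus moved in opposite directions over all libraries, Dlk1 rising (1.02 ± 0.25 SE, edgeR adjusted p = 0.0449) and Dio3, a thyroid hormone deiodinase, falling (-2.28 ± 0.56 SE, edgeR adjusted p = 0.0385). Neither passed within the larger set (edgeR adjusted p = 0.253 for Dlk1 and 0.206 for Dio3). Of the 7 fits that leave out 1 library, Dlk1 passed in 1 and Dio3 in 2.

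Of 11 tested nuclear noncoding RNAs, 0 passed in either direction by edgeR, beside 6.82% of all genes, and 1 had an unadjusted p below 0.05, beside 21.2% of all genes. This was Neat1, the scaffold of paraspeckles, which had 13.4, 12.6, 12.3 and 17.2 CPM in knockout libraries, against 10.5, 11.7 and 7.80 CPM in control libraries. The groups did not overlap, but the log2 fold change of 0.47 ± 0.18 did not pass (edgeR adjusted p = 0.145), and it was 0.20 within the larger set and 1.09 in the smaller set. Malat1 had 446, 549, 614 and 528 CPM in knockout libraries, against 415, 517 and 438 CPM in control libraries, and overlapped between groups (0.23, 95% interval -0.04 to 0.49). Ftx and Jpx, noncoding genes of the X inactivation centre, were at 0.09 ± 0.16 and 0.19 ± 0.21, and at -0.03 and -0.07 in the larger set. Miat, a nuclear lincRNA of neurons, had 88.9, 99.5, 118 and 106 CPM in knockout libraries, against 113, 114 and 104 CPM in control libraries. Its log2 fold change of -0.10 had a 95% interval of -0.31 to 0.11, which excludes a fall as large as that of Mir124a-1hg.

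Among 17 tested hosts of snoRNAs, 0 passed by edgeR and 2 had an unadjusted p below 0.05, beside 6.82% and 21.2% of all genes. The lincRNAs on that list were Epb41l4aos at -0.17 ± 0.15, Snhg6 at 0.04 ± 0.13, Snhg12 at 0.02 ± 0.16, Snhg18 at 0.29 ± 0.15 and Snhg20 at 0.33 ± 0.21. Snhg6, Snhg12 and Snhg20 lay below 0 within the larger set, at -0.13, -0.18 and -0.02. Among 17 tested noncoding RNAs of neural or developmental processes, 1 rose and 0 fell, and the 1 that rose, Crnde, is typed as a processed transcript (0.48 ± 0.12 SE, edgeR adjusted p = 0.0325). That count is near the 6.82% of all genes. The lincRNAs on that list did not pass: Pantr1, 1700020I14Rik at -0.06 ± 0.09, Dubr at -0.48 ± 0.25, Bvht, which is known from cardiac commitment of mouse embryonic stem cells, at 0.34 ± 0.30, Pvt1, beside Myc, at 0.35 ± 0.31 and Gm2694 at -0.60 ± 0.41. Pvt1 was at -0.10 within the larger set.

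Of 21 genes for proteins that bind, process or act with long noncoding RNAs, 1 rose and 0 fell, beside 1.94% and 4.87% of all genes. Suz12, a subunit of the Polycomb repressive complex that methylates histone H3, rose (0.33 ± 0.09 SE, edgeR adjusted p = 0.0387). The miRNA processing genes Drosha, Dgcr8 and Dicer1 were at 0.05 ± 0.09, 0.06 ± 0.10 and -0.01 ± 0.08, and the paraspeckle genes Nono and Sfpq at -0.05 ± 0.10 and -0.05 ± 0.09.

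Of the lincRNAs that belong to genes of the ear, Rncr4 and Rubie were scarce. Rncr4, known from mouse retina as a transcript running opposite to the miR-183 cluster, lies 3.2 kb from Mir183, and that cluster is expressed in hair cells. It had 3.98, 4.49, 3.33 and 4.57 CPM in knockout libraries, against 2.40, 2.89 and 2.46 CPM in control libraries. The groups did not overlap, but the log2 fold change of 0.67 ± 0.22 did not pass (edgeR adjusted p = 0.0942). Rubie, a transcript of the inner ear upstream of Bmp4, lies 177.6 kb from it, and was at 0.11 (95% interval -0.45 to 0.67), with Bmp4 at 0.00 ± 0.09. These 2 were chosen for naming after their values were seen.

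Among lincRNAs that did not pass, the widest differences came from uneven libraries. Gm2824 had 0, 0, 0 and 1.25 CPM in knockout libraries, against 6.11, 4.27 and 1.80 CPM in control libraries, and its edgeR adjusted p was 0.124. Values at 0 may have been set there before deposit, so no fold is given for it. 3110039M20Rik had 0.764, 0.481, 0.678 and 3.45 CPM in knockout libraries, against 5.80, 4.16 and 4.20 CPM in control libraries (-1.82 ± 0.58 SE, edgeR adjusted p = 0.108). Its high knockout library was replicate 4, and within the larger set its log2 fold change was -2.95 with an adjusted p of 0.00540. 6330403K07Rik, second in level, had 127, 121, 138 and 155 CPM in knockout libraries, against 162, 180 and 168 CPM in control libraries. It missed the threshold over all libraries (-0.33 ± 0.09 SE, edgeR adjusted p = 0.0568) and passed it within the larger set (-0.41, adjusted p = 0.0413) and by DESeq2 (adjusted p = 0.0121). AC166110.4, which matches 2 protein-coding genes over its whole transcript, also passed within the larger set alone (-1.82, edgeR adjusted p = 0.0203). Gm2824, 3110039M20Rik and AC166110.4 were chosen for naming after their values were seen.

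Knockout replicate 4 and control replicate 3, the smaller set, stood apart for many lincRNAs. Knockout replicate 4 was the highest and control replicate 3 the lowest of the 7 libraries by TMM-scaled CPM in 44 of the 255 lincRNAs, or 17.3% (36 by the deposited counts), against 9.62% of all genes tested. The reverse order held for 3, or 1.18%, against 4.03% of all genes tested. The deposited values of these 2 libraries carry other fractions than those of the larger set, and the part of the step behind them was not tested.

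Near the limit of the selection, the 3 lincRNAs just inside had means of 30.5 (Gm45881), 30.1 (Gm29684) and 30.1 (Gm47467), and the 3 rows just outside 29.8 (Gm16701), 29.8 (Gm7160) and 29.6 (Gm3830).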

How the data were processed

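RNA was measured by RNA-seq in 7 mouse libraries. The authors' deposited gene table holds estimated counts: values above 0 were multiples of 1 divided by 12 (tolerance 0.001), with 1 fraction per gene and set of libraries, a form that whole counts take when moved by a constant, and no label records that step. The design had assumed raw counts. The values were rounded to whole numbers and the planned test was kept. The authors' deposited FPKM values follow the same values and were used to compare levels between genes. Per the submitters' processing notes, the tools were HISAT2 2.0.5, fastp, featureCounts 1.5.0-p3, DESeq2 1.20.0 and CASAVA 1.8, with the build mm10 and no roles named. The kit named in the labels, NEBNext Ultra RNA, is not a strand-marking one as named.

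The test was the robust quasi-likelihood F-test of edgeR 4.0.16 under R 4.3.3 (TMM factors, genes kept by filterByExpr, Benjamini-Hochberg over 17341 genes, adjusted p below 0.05, 5 residual degrees of freedom). If constants were fitted before deposit, the p-values do not count that and may be too small. CPM are TMM-scaled, and SE come from the F statistic. The fit was run on simulated counts with the same spread for all genes and no shift between the sets of libraries. That run therefore does not check the p-values for such shifts or for the wider spread of scarce lincRNAs. DESeq2 1.42.0, RLE factors, no filter, each library left out, replicate blocks, the larger set alone, a term for the sets, thresholds of 10 and 100 and, chosen after seeing the data, members with no overlap and no copy were alternatives. Copies were sought with blastn 2.17.0 among GENCODE M21 transcripts.

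The members and lists were chosen with earlier results of these data known, and no test over the list was made. Named were D130009I18Rik, each member called, the 8 with the highest FPKM, those on the role lists, the 3 to each side of the limit and the genes overlapping or nearest to a called member. Other miRNA hosts, divergent partners and lincRNAs named were chosen after their values were seen. Of the other lists (all genes: 1.94% higher, 4.87% lower), hair cell markers had 2 of 10 higher and 0 lower, prosensory 0 and 3 of 10, mesenchyme 3 and 0 of 11, macrophage 2 and 0 of 8, imprinted neighbours 1 and 2 of 12, and melanocyte and erythroid markers (6 and 5 genes) 0 by edgeR, with 2 melanocyte genes and 0 erythroid genes at an unadjusted p below 0.05. Of 11 listed miRNA hosts tested, 0 were higher and 2 lower.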

Additional observations from a re-analysis of the deposited data

Results flagged for a closer look

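Among the 4 knockout libraries, 5 of the 42 lincRNAs named by the rule had 1 library far from the other 3 by Dixon's test, of which chance gives about 1 in 20. 1700020I14Rik was lowest in knockout replicate 4, at 149 CPM against 172 to 174 CPM in the other 3. 1810058I24Rik was highest in knockout replicate 4, at 91.9 CPM against 74.7 to 76.9 CPM, and so was Mirg, at 15.6 CPM against 8.08 to 9.31 CPM. 5330434G04Rik was highest in knockout replicate 3, at 2.16 CPM against 0.818 to 1.02 CPM, and Mir124a-1hg was too, at 5.43 CPM against 3.69 to 3.98 CPM. In Mir124a-1hg and 5330434G04Rik the odd library lay toward the control level, and both passed the test with it included.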

How the results depend on the processing

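No called lincRNA changed direction under any alternative run, but 16 of the 42 named lincRNAs that were not called did, none of them called under that alternative. In the larger set alone the log2 fold change changed sign in Pvt1 (-0.099), Snhg6 (-0.132), Snhg12 (-0.176), Snhg20 (-0.024), Mirg (-0.340), Meg3 (-0.073), Xist (-0.015), Gm29684 (-0.482), Ftx (-0.032), Jpx (-0.074) and 2900097C17Rik (0.063). With the replicate block by title number it did in Xist (-1.40), Snhg12 (-0.110), Gm29684 (-0.041), Snhg6 (-0.058) and 1810058I24Rik (-0.024), and with that by description number in Snhg12 (-0.008). With 1 library left out, the range spanned 0 in 1700020I14Rik (-0.144 to 0.001), 1810058I24Rik (-0.025 to 0.094), Ftx (-0.009 to 0.182), Gm10076 (-0.650 to 0.147), Gm26917 (-1.15 to 0.862), Gm29684 (-0.214 to 0.404), Gm47467 (-0.073 to 0.191), Mirg (-0.090 to 0.441), Snhg12 (-0.107 to 0.134), Snhg6 (-0.058 to 0.112) and Xist (-1.03 to 1.68). The number of lincRNAs called higher, 4, was 2 in the larger set of libraries alone, 2 at a membership threshold of 100 and 2 to 4 when 1 library was left out. The number called lower, 10, was 2 at a threshold of 100, where 85 lincRNAs remain, 4 among the 131 with no overlap and no near-identical copy, and 7 to 11 when 1 library was left out. DESeq2 gave 6 higher and 13 lower. With a replicate block by the number in the titles, 2 were higher and 10 lower, and with a replicate block by the number in the descriptions 0 were higher and 5 lower (28 had an unadjusted p below 0.05, 12 of them higher, and DESeq2 without the block gave 6 higher). Deviations of libraries with the same title number correlated at -0.08, -0.15 and 0.05, and not every library correlated best with its own number. The pair with description number 4, which is the smaller set, correlated at -0.48. If constants were fitted per gene and set before deposit, they would alter such correlations. The correlations therefore do not show whether the numbers pair the samples. The cause of these differences was not tested, apart from the fewer members or libraries that the threshold, the larger set and the left-out libraries entail. The median log2 fold change of the 255 lay between 0.06 and 0.18 under all alternatives. Among the 42 named lincRNAs the larger set alone ended 7 calls and added 1, and the term for the sets ended 4. Depth limits the lincRNAs with means of 30 to 100, whose spread between replicates was 22.6%.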
